A study of Mus musculus with 7 samples.

Results

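Mouse embryonic fibroblasts (MEFs) cultured for 10 h in medium without glucose were compared with control MEFs by RNA-seq. The comparison used 2 of the 7 libraries of the series. The cells were primary fibroblasts of wild-type embryos, and each condition was represented by 1 library. The other 5 libraries came from MEFs cultured for 10 h without glutamine, for 3 h with an additional 100 mM NaCl (osmotic stress), for 10 h with 1 µM thapsigargin (ER stress), for 3 h with 10 µM sodium arsenite (oxidative stress) and for 10 h in 0.1% oxygen (hypoxia). They served to choose the genes and to show where the glucose depletion library stood among the 7. The genes compared were those with a mean of at least 2 TPM (transcripts counted per length and scaled to 1000000 per library) over the 7 libraries. Symbols starting with Gm, Mir, Snor or mt-T and symbols with -ps or -rs were left out. Many predicted, short and pseudogene RNAs go by such names, but those with other names stayed in. This kept 11552 of 49139 gene symbols. Each change is the log2 of TPM + 1 in the glucose depletion library minus the same value in the control library.

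Glucose that enters a fibroblast is phosphorylated by hexokinase, and the glucose-6-phosphate formed is read by the transcription factor pair MondoA (gene *Mlxip*) and MLX. When glucose-6-phosphate is plentiful, this pair moves to the nucleus and switches on *Txnip* and *Arrdc4*, which encode α-arrestins that take glucose transporters off the cell surface, so the pair acts as a brake on glucose uptake. Glucose also feeds the acetyl-CoA used for cholesterol and fatty acids, whose genes answer to the SREBP factors, and the sugar chains that are attached to proteins in the endoplasmic reticulum (ER). The best known ER chaperones were first named glucose-regulated proteins, because their levels rise in cells kept without glucose.

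With 1 library per condition there was no replicate check, so no test was made and no difference below carries an error. TPM are shares of a library and keep no read depth, so the precision of a low value is unknown. Whether the serum still supplied glucose, and how the control medium was changed, is not given in the sources used here. In the control library 20613 rows of the gene table were above 0 TPM. In the glucose depletion library 19819 were, the lowest number of the 7, of which the highest was 21154. Mitochondrially encoded genes, here all symbols starting with mt-, took 6.37% of the control TPM and 6.51% of the glucose depletion TPM. Both libraries carried fibroblast markers, with 12 of 12 kept, among them *Col1a1* at 3154 TPM in control and 3313 TPM in glucose depletion. Of 8 macrophage markers only *Cd68* was kept (7.21 and 7.13 TPM), of 6 endothelial markers only *Kdr* (3.64 and 2.23 TPM), and of 6 erythroid markers none. The summed TPM were 11.5 and 9.71 for the macrophage markers, 6.68 and 4.09 for the endothelial markers, 47.9 and 41.6 for the epithelial markers and 46.8 and 54.3 for the neural markers. Those of muscle summed to 122.0 TPM in control and 192.5 TPM in glucose depletion, a difference that came from *Acta1*, skeletal α-actin, at 80.3 and 152.3 TPM, while *Myod1*, *Myog*, *Myf5* and *Ckm* were not kept. In bulk RNA, fewer cells of a kind and less RNA per cell cannot be told apart.

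*Txnip* lies on the plus strand of chromosome 3 (chr3:96557957-96561883, GRCm38) and *Arrdc4* on the minus strand of chromosome 7 (chr7:68736995-68749241). Their promoters are shown because MondoA and MLX bind short sites that start with CACG in such regions. The first line gives the 250 bases before the RefSeq start of *Txnip* (GRCm38.p6, chr3:96557707-96557956, plus strand), with capitals for CACGNG repeated in the same direction after 5 bases. The second line gives those of *Arrdc4* (chr7:68749239-68749488, minus strand), with capitals for a full E-box, CACGTG. Both are written 5′ to 3′ as the gene is read.
Txnip: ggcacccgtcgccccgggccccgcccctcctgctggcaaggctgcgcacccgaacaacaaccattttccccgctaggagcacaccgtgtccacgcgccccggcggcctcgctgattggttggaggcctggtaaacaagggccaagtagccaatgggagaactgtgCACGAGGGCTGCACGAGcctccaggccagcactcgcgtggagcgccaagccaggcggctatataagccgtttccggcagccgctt
Arrdc4: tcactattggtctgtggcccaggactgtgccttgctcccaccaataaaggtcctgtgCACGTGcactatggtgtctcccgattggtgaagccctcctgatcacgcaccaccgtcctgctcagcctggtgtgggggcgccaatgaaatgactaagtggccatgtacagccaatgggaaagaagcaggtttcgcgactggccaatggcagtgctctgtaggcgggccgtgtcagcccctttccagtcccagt
The capitals began at position −85 from the start of *Txnip* and at position −193 from that of *Arrdc4*. RefSeq promoters were at hand for 8910 of the kept genes, and both strands were searched. The direct repeat, whose direction was chosen after the *Txnip* sequence was seen, was held by 8 of these genes, or 0.0898%. The E-box was held by 925, or 10.4%, among them *Arrdc4* and *Mlx* of the 7 kept genes of the MondoA list. CACGNG facing CNCGTG across 5 bases was held by 3 of the 8910 genes (0.0337%) and by none of the 7. A match shows only that the letters are present.

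*Txnip* and *Arrdc4* were both lower without glucose by more than 2-fold. *Txnip* stood at 70.7 TPM in control and 16.1 TPM in glucose depletion, a log2 change of −2.07. In the other libraries it was at 68.7 TPM without glutamine, 7.22 in osmotic stress, 119.7 in ER stress, 44.9 in oxidative stress and 91.7 in hypoxia. The glucose depletion library was thus the second lowest of the 7 for *Txnip*, above osmotic stress. *Arrdc4* was at 7.38 TPM in control and 1.97 TPM in glucose depletion, a log2 change of −1.50. It was at 10.0 TPM without glutamine, 5.54 in osmotic stress, 31.1 in ER stress, 9.82 in oxidative stress and 8.70 in hypoxia, so glucose depletion was the lowest of the 7. At this low level the value depended on the pseudocount: with 5 TPM in place of 1 TPM it was −0.83 for *Arrdc4*, no longer past 2-fold, and −1.84 for *Txnip*. Over all kept genes, 77 (0.667%) were lower and 65 (0.563%) were higher by more than 2-fold, and the median change was −0.03.

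The rest of this gene family and its factors differed less. *Mlxip* was at 11.0 TPM in control and 13.2 TPM in glucose depletion (log2 change 0.24), and *Mlx*, its binding partner, at 49.9 and 47.7 TPM (−0.06). *Mlxipl*, which encodes the related glucose sensor ChREBP, was not kept, with 0.04 and 0.24 TPM. Among the other α-arrestins, *Arrdc2* was at 5.44 and 3.33 TPM (−0.57), *Arrdc1* at 9.95 and 8.36 TPM (−0.23) and *Arrdc3* at 16.1 and 17.6 TPM (0.13), while *Arrdc5* was listed at 0 in all 7 libraries. The 7 kept genes of the list of 9 had a median of −0.23, with 2 past 2-fold.

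**Figure D1:**
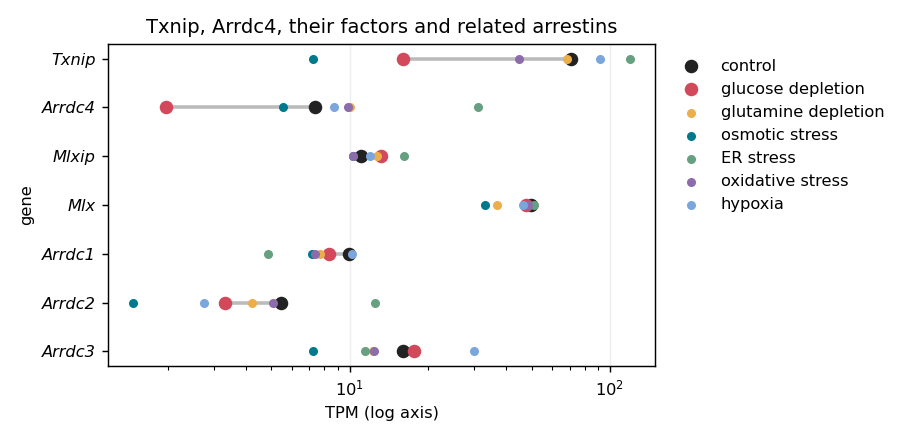
TPM (log axis) of the 7 kept genes of the MondoA list, 1 point per library, with a grey line joining control and glucose depletion. *Txnip* moved from 70.7 to 16.1 TPM and *Arrdc4* from 7.38 to 1.97 TPM, while the lines of *Mlxip*, *Mlx*, *Arrdc1* and *Arrdc3* are short.

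Outside these 2 genes, large differences were few. The middle 50% of the kept genes lay between −0.19 and 0.12, and the lower and upper 2.5 percentiles were −0.69 and 0.54. Of the 142 genes past 2-fold, 94 (66.2%) were protein-coding, against 96.68% of all kept genes, and 22 were listed at 0 TPM in control or glucose depletion. Their longest transcripts had a median of 2310 bases, against 3414 bases for all kept genes. Among the 6377 genes with at least 20 TPM in the higher of the 2 libraries, a limit set after the data were seen, 10 were higher and 15 lower by more than 2-fold.

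**Figure D2:**
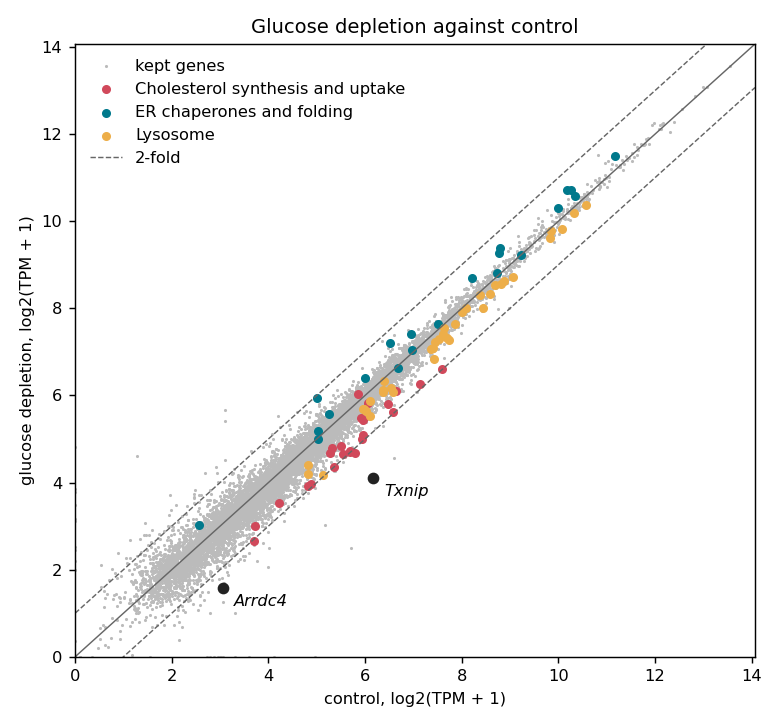
Log2(TPM + 1) of the 11552 kept genes in control (x) and glucose depletion (y), with dashed lines at 2-fold. *Txnip* and *Arrdc4* lie below the lower dashed line, the 24 cholesterol genes mostly between it and the diagonal, the 37 lysosomal genes just under the diagonal, and most ER folding genes just above it.

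Short or noncoding RNAs made up most of the largest differences among genes with at least 5 TPM in the higher library. The paper describes libraries built with a stranded mRNA protocol, and how well it captures such RNAs was not tested. Some entries are very short, with longest transcripts of 49 bases for *Trbj2-3* and 71 bases for *Rnu73b*. TPM are counted per length, and the number of reads behind these values is unknown. They are therefore not read here as the main response to glucose depletion. Of the 15 largest increases, 11 were not annotated as protein-coding, and no gene type was found for *SNORD113* and *mmu-mir-493* among them. In control 6 of the 15 were listed at 0 (*Trbj2-3*, *AL928567.1*, *AC139186.1*, *n-TSaga9*, *AC124457.1* and *mmu-mir-493*). *Trbj2-3*, a very short T cell receptor joining segment, was at 27.3 TPM in glucose depletion, but also at 24.1 TPM in oxidative stress and 41.3 TPM in hypoxia. The small nucleolar RNA gene *DQ267102* went from 7.57 to 41.6 TPM, and *SNORD113*, a family of small nucleolar RNAs listed on several rows that were summed, from 7.57 to 49.5 TPM. The copies of this family were not compared in sequence, and their values are uncertain. *DQ267102* and *SNORD113* were listed at the same value in control and also in hypoxia (16.8 TPM), so they may not be separate increases. The noncoding *C430002N11Rik* (5.41 to 17.7 TPM), *AC166358.2* (1.19 to 5.37 TPM) and *1700030C10Rik*, a transcribed pseudogene (1.41 to 23.4 TPM), completed these 11 increases. The glucose depletion library was the highest of the 7 for 8 of the 15 increases, against 9.04% of all kept genes. These 15 were picked as the largest increases over control, which by itself favours a high place.

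The 4 protein-coding genes among these increases were *Lyrm7*, *Pkp1*, *Palm2* and *Sema7a*. *Lyrm7*, a respiratory complex III assembly factor, was at 2.89 TPM in control and 12.1 TPM in glucose depletion (log2 change 1.76), beside 12.4 TPM in ER stress and 10.0 TPM in osmotic stress. *Pkp1*, a desmosomal plakophilin, went from 1.72 to 7.36 TPM (1.62), and *Palm2*, a paralemmin, from 6.51 to 19.4 TPM (1.44), where the other 5 libraries had at most 8.59 TPM. *Sema7a*, a membrane-anchored semaphorin, went from 7.61 to 21.8 TPM (1.41) and was higher still without glutamine, at 46.6 TPM, and in oxidative stress, at 27.2 TPM.

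Of the 15 largest decreases, 13 were not annotated as protein-coding, and no gene type was found for *FO907130.1*, *BX890553.6* and *AC162446.3* among them. In glucose depletion 11 of the 15 were listed at 0. Those 11 were *Rnu73b*, *1700026F02Rik*, *AC100406.2*, *Snhg7*, *AC161829.1*, *AC164561.2*, *AC164123.1*, *FO907130.1*, *BX890553.6*, *Spata5l1* and *Hist2h2aa1*, the last of which encodes a histone H2A. Among them *Rnu73b*, a small nucleolar RNA at 30.1 TPM in control, was also listed at 0 in oxidative stress and hypoxia, and *Snhg7*, at 8.93 TPM in control, also in hypoxia. The others were *AL845457.1* (51.0 to 4.63 TPM), *AC162446.3* (8.87 to 1.02 TPM), *AF357399* (34.9 to 7.15 TPM) and *Txnip*. *Txnip* was therefore the only gene annotated as protein-coding among the 15 with a value above 0 in both libraries.

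Genes that move glucose and lactate across membranes showed a few differences past 1.5-fold, a limit that 225 of all kept genes (1.95%) passed as higher and 462 (4.0%) as lower. *Slc16a3*, which encodes the lactate exporter MCT4, was at 13.9 TPM in control and 27.4 TPM in glucose depletion (log2 change 0.93), between 9.06 and 14.1 TPM in 4 other libraries and at 391.4 TPM in hypoxia. *Slc16a7*, which encodes MCT2, was at 3.07 and 6.85 TPM (0.95), and the other 5 libraries ranged from 2.73 to 7.64 TPM. *Slc2a8*, an intracellular glucose transporter, was at 9.50 and 5.04 TPM (−0.80), the lowest of the 7. The main glucose transporter *Slc2a1* was at 58.4 and 70.5 TPM (0.27), and *Slc2a3* at 3.39 and 3.08 TPM (−0.10). Of 14 transport genes 12 were kept, 7 were higher and 5 lower, and the median was 0.15, or −0.06 when the median of the other 6 libraries replaced control.

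The enzymes of glycolysis differed little as a group, with a median of 0.05 over 23 kept genes of 25, of which 14 were higher and 9 lower. Over all kept genes, 5242 (45.4%) were higher and 6299 (54.5%) lower at all. *Pfkl*, the liver form of phosphofructokinase, was at 25.8 TPM in control and 47.1 TPM in glucose depletion (0.84), and *Aldoc*, a minor aldolase, at 1.10 and 3.45 TPM (1.08). *Eno2*, the neuronal form of enolase, went the other way, from 30.4 to 13.6 TPM (−1.10), or −0.60 against the median of the other 6 libraries. The abundant forms of the lower steps were slightly higher: *Aldoa* at 725.7 and 894.6 TPM (0.30), *Gapdh* at 2221 and 2563 TPM (0.21), *Pgk1* at 290.5 and 372.3 TPM (0.36) and *Ldha* at 692.3 and 807.2 TPM (0.22). The first enzymes were not, with *Hk1* at 60.4 and 57.3 TPM (−0.07) and *Hk2* at 16.2 and 13.3 TPM (−0.27). Summed TPM of the list were 7268 in control and 8207 in glucose depletion, beside 21767 in hypoxia.

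Pathways that branch from glycolysis, and those of mitochondrial fuel use, had medians between the quartiles of all kept genes (−0.19 and 0.12). The 8 pentose phosphate genes had a median of −0.12, with 7 lower (54.5% of all kept genes were) and none past 1.5-fold. The largest decrease was that of *Taldo1*, transaldolase, from 136.4 to 108.5 TPM (−0.33), and *G6pdx*, the first enzyme, was at 57.6 and 51.8 TPM (−0.15). The 13 kept glycogen genes of 14 had a median of −0.15, none past 1.5-fold, with *Phkb*, a phosphorylase kinase subunit, lowest of the 7 at 11.4 TPM (control 17.5 TPM, −0.58) and *Gys1*, glycogen synthase, at 39.1 and 46.0 TPM (0.23). Both medians were 0.03 against the median of the other 6 libraries. The 27 genes of pyruvate oxidation and the TCA cycle had a median of −0.01, with 12 higher and 15 lower. *Pdk4*, a kinase that holds back pyruvate dehydrogenase, was the most increased of them, at 10.2 and 14.4 TPM (0.46), the highest of the 7. The 18 genes of fatty acid oxidation had a median of −0.07, the 72 nuclear genes of the respiratory chain −0.03, and neither list had a member past 1.5-fold.

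In the hexosamine pathway, which makes the sugar nucleotide UDP-GlcNAc, 1 of 10 genes was lower by more than 1.5-fold (4.0% of all kept genes were). This was *Gnpda1*, which runs the pathway backwards from glucosamine-6-phosphate, at 81.2 TPM in control and 52.2 TPM in glucose depletion (−0.63), although it was lower still without glutamine, at 29.7 TPM. Genes of the forward steps were higher, namely *Gfpt2* at 8.51 and 13.0 TPM (0.55), *Pgm3* at 29.2 and 40.0 TPM (0.44) and *Gnpnat1* at 24.6 and 31.6 TPM (0.35). *Gfpt1*, the more abundant form of the first enzyme, was at 46.6 and 49.1 TPM (0.07). The list median was 0.04.

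Cholesterol genes were the most displaced of the lists of more than 10 genes. All 24 listed genes were kept, 23 of 24 were lower, 18 of 24 were lower by more than 1.5-fold (4.0% of all kept genes were) and 3 by more than 2-fold. The median log2 change was −0.87, against −0.03 for all kept genes. Summed TPM were 1438 in control, 861.8 in glucose depletion, 832.1 without glutamine, 2031 in osmotic stress, 1302 in ER stress, 2445 in oxidative stress and 974.5 in hypoxia. Glucose depletion, glutamine depletion and hypoxia thus had the 3 lowest sums, and the single control library is shared by all such comparisons.

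The difference ran through the whole pathway. In the mevalonate arm, *Mvk* was at 50.6 TPM in control and 25.4 TPM in glucose depletion (−0.97), *Mvd* at 28.7 and 14.7 TPM (−0.92), *Idi1* at 61.2 and 33.2 TPM (−0.86) and *Pmvk* at 37.9 and 24.7 TPM (−0.60). *Fdps*, which makes farnesyl pyrophosphate, was at 192.7 and 96.2 TPM (−0.99), while the other 5 libraries ranged from 117.5 to 256.6 TPM, so that glucose depletion was the lowest. At the entry to sterols, *Fdft1* (squalene synthase) was at 50.8 and 25.2 TPM (−0.98), *Sqle* at 88.3 and 54.7 TPM (−0.68) and *Lss* at 44.0 and 27.4 TPM (−0.66).

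The enzymes that turn lanosterol into cholesterol included the 3 genes past 2-fold. *Hsd17b7* was at 54.5 TPM in control and 24.8 TPM in glucose depletion (−1.11), with 18.9 TPM in ER stress and 23.9 TPM in hypoxia below it. *Tm7sf2* was at 12.0 and 5.27 TPM (−1.05), the lowest of the 7, and *Nsdhl* at 40.2 and 19.5 TPM (−1.01), with 16.1 TPM in ER stress below it. *Cyp51* (94.0 and 47.9 TPM, −0.96), *Dhcr7* (27.3 and 14.2 TPM, −0.90) and *Msmo1* (140.6 and 75.6 TPM, −0.89) were near 2-fold lower.

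Other genes of the list differed by unequal amounts. *Insig1*, which holds SREBP in the ER, was at 45.8 TPM in control and 24.2 TPM in glucose depletion (−0.89) and *Stard4*, a sterol carrier, at 17.6 and 10.5 TPM (−0.69). *Srebf2*, which encodes the factor SREBP2, was at 59.0 and 43.4 TPM (−0.44). *Sc5d*, a late enzyme of the pathway, was the least lowered, at 65.4 and 56.0 TPM (−0.22). *Hmgcs1*, which makes HMG-CoA, was at 98.5 and 67.6 TPM (−0.54), beside 29.2 TPM without glutamine and 179.5 TPM in oxidative stress. *Ebp*, a sterol isomerase, was at 39.0 and 26.7 TPM (−0.53). Glucose depletion was the lowest of the 7 for 5 of 24 genes, among them *Tm7sf2*, *Fdps*, *Cyp51* and *Msmo1*, against 6.28% of all kept genes.

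**Figure D3:**
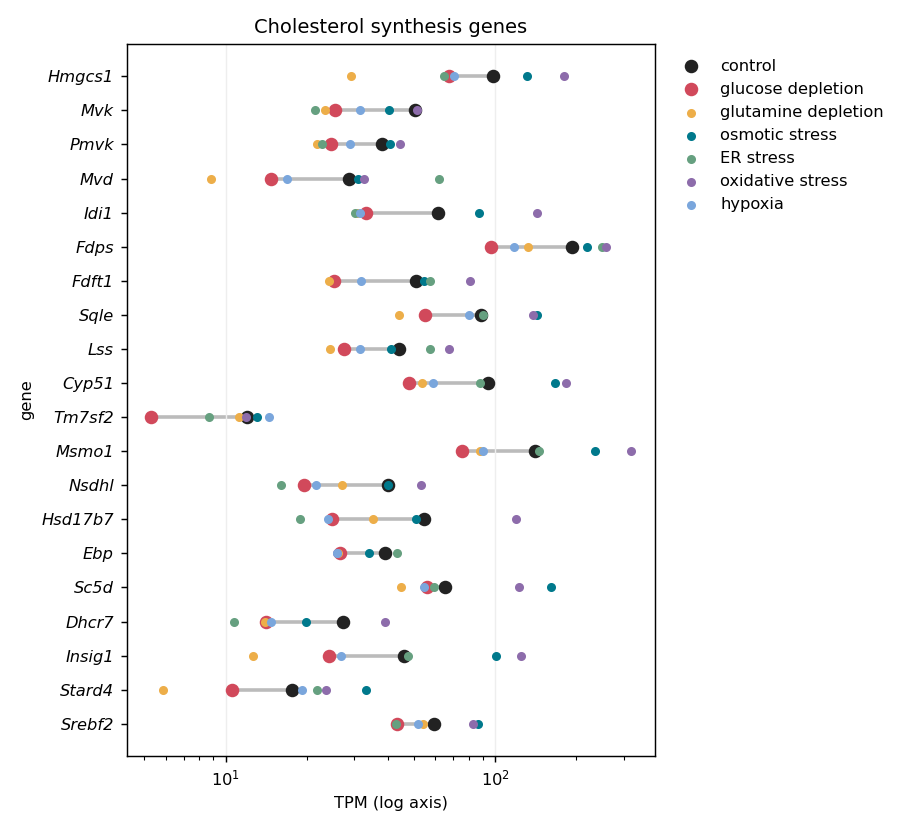
TPM (log axis) of 20 of the 24 cholesterol genes in the order of the pathway, 1 point per library, with a grey line joining control and glucose depletion. The glucose depletion point is left of control for each gene drawn, and the osmotic and oxidative stress points are mostly to the right.

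Fatty acid genes were lower by less. Of 16 listed genes 14 were kept, with a median of −0.50. In all, 12 were lower and 2 of them passed 1.5-fold (54.5% and 4.0% of all kept genes). *Fads1*, a desaturase, was at 91.8 TPM in control and 59.3 TPM in glucose depletion (−0.62), the lowest of the 7, and *Lpin1*, a phosphatidate phosphatase, at 7.69 and 4.69 TPM (−0.61). *Scd2* (253.2 and 170.6 TPM, −0.57), *Fasn*, fatty acid synthase (78.9 and 53.9 TPM, −0.54), and *Srebf1*, which encodes SREBP1 (59.4 and 44.3 TPM, −0.42), were lower by less than 1.5-fold. The 2 genes that were higher were *Acaca*, the first committed enzyme, and *Gpam*, the latter at 7.40 and 7.57 TPM (0.03). The letters TCACNCCAC, a form of the sterol element, were sought in the 250 bases before the gene starts after the values were seen. They were before *Hmgcs1* alone among 16 cholesterol genes with a promoter, and before none of 11 such fatty acid genes. Of the 8910 kept genes, 1.29% held them.

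All 37 listed lysosomal genes were kept and all 37 were lower, most of them by little. The median was −0.26, and 4 of 37 were lower by more than 1.5-fold (4.0% of all kept genes were). The summed TPM were 11897 in control and 10240 in glucose depletion, a difference of −13.93%. The sum was 11165 without glutamine, 13867 in osmotic stress, 9413 in ER stress, 12711 in oxidative stress and 12460 in hypoxia. Glucose depletion was the lowest of the 7 for 10 of the 37 genes, against 6.28% of all kept genes. In all, 54.5% of the kept genes were lower.

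The largest lysosomal difference was that of *Neu1*, the sialidase, at 33.9 TPM in control and 17.1 TPM in glucose depletion (−0.95), with 18.1 to 29.7 TPM elsewhere. *Gla*, α-galactosidase A, was at 27.4 and 17.4 TPM (−0.62). Of the proton pump that acidifies the lysosome, *Atp6v1e1* was at 170.7 and 113.3 TPM (−0.59), and *Atp6v0a1* at 67.8 and 44.9 TPM (−0.59). The 15 pump genes had a median of −0.28 and the 22 enzymes and membrane proteins −0.23. Abundant members differed little, with *Ctsd*, cathepsin D, at 1516 and 1331 TPM (−0.19) and *Lamp1* at 1075 and 909.9 TPM (−0.24). *Gusb* was the least lowered, at 82.8 and 79.6 TPM (−0.06).

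Many lysosomal genes answer to TFEB, a factor held in the cytosol by mTORC1 through the folliculin complex and the Rag GTPases. The 10 genes of this axis had a median of −0.37, against −0.03 for all kept genes, with 8 lower (54.5% of all kept genes were). Of the 10, 1 was lower by more than 1.5-fold (4.0% of all kept genes were). This was *Flcn*, folliculin, at 28.8 TPM in control and 17.7 TPM in glucose depletion (−0.67). Its partners were *Fnip2* at 17.1 and 11.3 TPM (−0.56) and *Fnip1* at 19.3 and 14.7 TPM (−0.36). *Mcoln1*, a lysosomal calcium channel, was at 50.3 and 34.6 TPM (−0.53), the lowest of the 7. The factors themselves differed little, with *Tfeb* at 5.23 and 4.79 TPM (−0.11) and *Tfe3* at 37.8 and 39.3 TPM (0.06). The 20 autophagy genes had a median of 0.06, with *Map1lc3b*, LC3B, at 186.7 and 146.4 TPM (−0.35). Among 8 kept genes that restrain mTORC1 (median −0.31), *Depdc5* was at 15.7 and 8.22 TPM (−0.86). The letters TCACGTGA, to which TFEB binds and which were sought after the values were seen, were before *Ctsa*, *Ctsd*, *Gla* and *Atp6v1a*, 4 of the 27 lysosomal genes with a promoter (14.8%), and before 1.93% of the kept genes.

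ER chaperones and folding enzymes were higher together, by small amounts. All 21 were kept, 18 were higher (45.4% of all kept genes were), 3 by more than 1.5-fold (1.95% of all kept genes) and none by 2-fold, and the median was 0.34. Their summed TPM were 10013 in control and 12796 in glucose depletion, a difference of 27.8%. Without glutamine the sum was 8203, in osmotic stress 9584, in oxidative stress 7518, in hypoxia 11259 and in ER stress 42671. The glucose depletion library was the second highest of the 7 for most of these genes, far below thapsigargin.

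Promoters of these genes are shown for the letters CCAAT and CCACG with 9 bases between, the ER stress element, a motif sought after the values were seen. It was found in 7 of the 16 ER folding genes with a promoter (43.8%) and in 15 of the 8910 kept genes (0.168%), whose median change was 0.34. The stretches are written 5′ to 3′ on the strand that holds CCAAT first (RefSeq, GRCm38.p6), with the fixed letters in capitals. *Hsp90b1* had both.
Hspa5: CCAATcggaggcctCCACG
Hsp90b1, same strand as the gene: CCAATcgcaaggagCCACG
Hsp90b1, opposite strand: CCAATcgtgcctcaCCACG
Dnajc3: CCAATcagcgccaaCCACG
Creld2: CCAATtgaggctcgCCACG
Calr: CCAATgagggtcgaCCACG
Canx: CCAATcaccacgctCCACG
Pdia6: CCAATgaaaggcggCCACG
The stretch ended 46 bases before the start of *Hspa5* and 79 bases before that of *Pdia6*. These 7 genes had a median change of 0.46, and *Canx*, which holds the letters, differed by −0.01.

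*Hspa5*, which encodes the chaperone BiP (GRP78), was at 1165 TPM in control and 1689 TPM in glucose depletion, a log2 change of 0.54. It was at 942.7 TPM without glutamine, 1034 in osmotic stress, 12611 in ER stress, 784.3 in oxidative stress and 1224 in hypoxia. Only ER stress was higher than glucose depletion. The 3 genes past 1.5-fold were *Sdf2l1*, an *Hspa5* partner, at 31.1 and 60.8 TPM (0.94), *Creld2*, a disulfide isomerase-like protein, at 90.4 and 145.8 TPM (0.68), and *Manf*, a secreted ER protein, at 440.7 and 667.6 TPM (0.60). *Hsp90b1*, GRP94, was at 1228 and 1684 TPM (0.46). All 8 disulfide isomerases and oxidases were higher, among them *Pdia6* at 436.8 and 618.1 TPM (0.50) and *Pdia4* at 293.8 and 411.0 TPM (0.48). The 3 members that were not higher differed by no more than −0.04, namely *Dnajc10*, *Sil1* and *Canx*.

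**Figure D4:**
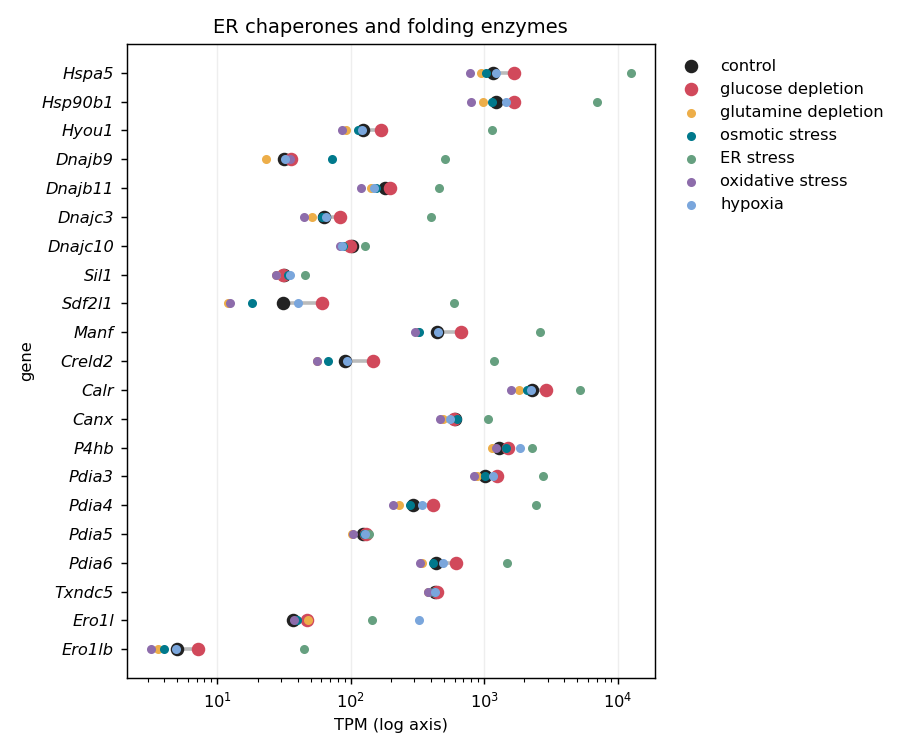
TPM (log axis) of the 21 ER chaperones and folding enzymes, 1 point per library, with a grey line joining control and glucose depletion. The glucose depletion point lies to the right of control for 18 of 21 genes, and the ER stress point far to the right of both for most of them.

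Genes that build the sugar chain and transfer it to proteins in the ER were also slightly higher. All 30 listed genes were kept, 22 were higher (45.4% of all kept genes were) and 1 passed 1.5-fold (1.95%), with a median of 0.12. This was *Alg11*, a mannosyltransferase, at 10.1 TPM in control and 16.7 TPM in glucose depletion (0.67). *Dpm1*, which makes dolichol-phosphate mannose, was at 37.9 and 56.8 TPM (0.57), the highest of the 7, and *Alg8* at 21.7 and 30.5 TPM (0.47). The 10 subunits of oligosaccharyltransferase had a median of 0.12, with 9 higher, led by *Ostc* at 221.4 and 286.9 TPM (0.37). *Dolk*, dolichol kinase, was the most decreased, at 19.8 and 16.2 TPM (−0.27).

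Genes of ER-associated degradation and the sensors of the unfolded protein response were mixed. The median of 21 was 0.15, with 16 higher (45.4% of all kept genes were). *Derl3*, a channel component at a low level, was at 1.65 and 3.64 TPM (0.81), beside 331.0 TPM in ER stress. *Herpud1*, a ubiquitin-like ER protein, was at 101.9 TPM in control and 72.7 TPM in glucose depletion (−0.48), and *Atf6b* at 66.3 and 47.1 TPM (−0.48). *Xbp1* was at 105.6 and 120.0 TPM (0.18) and *Edem1* at 83.5 and 104.6 TPM (0.32).

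Targets of the integrated stress response, which runs through the factor ATF4, were not higher. All 17 were kept, 11 were lower (54.5% of all kept genes were) and 6 higher. The median was −0.18, or −0.51 against the median of the other 6 libraries. *Ddit3*, which encodes CHOP, was at 136.0 TPM in control, 95.9 in glucose depletion, 141.1 without glutamine, 48.9 in osmotic stress, 1870 in ER stress, 176.7 in oxidative stress and 208.1 in hypoxia (log2 change −0.50). *Chac1*, a glutathione-degrading enzyme, was at 26.2 and 14.8 TPM (−0.78), *Gdf15* at 7.03 and 4.27 TPM (−0.61), and *Ppp1r15a*, GADD34, at 38.8 and 28.6 TPM (−0.43). *Atf4* was at 276.2 and 260.1 TPM (−0.09), the lowest of the 7. Higher members were *Slc7a11*, the cystine transporter, at 2.60 and 4.11 TPM (0.51) and *Nupr1* at 211.2 and 263.5 TPM (0.32).

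Amino acid genes, many of which share these regulators, had a median of −0.09 over 23 kept of 24. Of these, 16 were lower (54.5% of all kept genes were) and 7 higher. *Psph*, the last enzyme of serine synthesis, was at 41.4 TPM in control and 23.3 TPM in glucose depletion (−0.80), the lowest of the 7, while *Phgdh*, the first, was at 356.6 and 417.7 TPM (0.23). *Asns*, asparagine synthetase, was at 141.2 and 124.9 TPM (−0.18). The 20 cytosolic aminoacyl-tRNA synthetases had a median of −0.01, with 10 higher and 10 lower.

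Genes of DNA replication were a little higher without glucose, and the glucose depletion library was the highest of the 7 for 17 of 28 (against 9.04% of all kept genes). The median was 0.12, with 23 higher (45.4% of all kept genes were) and none past 1.5-fold. Against the median of the other 6 libraries it was 0.38. *Ccne2*, cyclin E2, was at 34.4 TPM in control and 49.2 TPM in glucose depletion (0.50), *Pole* at 7.16 and 10.3 TPM (0.47), and *Gins1* at 9.69 and 13.6 TPM (0.45). The 24 mitotic genes had a median of −0.03, but 0.48 against the median of the other 6 libraries. Control was the highest of the 7 for 13 of them (11.3% of all kept genes) and glucose depletion for 9. Their summed TPM were 1515 in control, 1480 in glucose depletion and between 754.1 and 1274 elsewhere. The 30 ribosome biogenesis genes had a median of 0.10, with 25 higher (45.4% of all kept genes were), and the 78 ribosomal protein genes −0.03. *Rpl10* alone of these passed 1.5-fold, at 506.4 and 257.6 TPM (−0.97), with 227.1 to 417.8 TPM in the other 5 libraries.

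Contractile genes, which answer to serum response factor, were all slightly higher. The 15 listed had a median of 0.19, none passed 1.5-fold, and the glucose depletion library was the highest of the 7 for 11 (9.04% of all kept genes). *Acta2*, smooth muscle α-actin, was at 4020 TPM in control and 4878 TPM in glucose depletion (0.28), *Tagln* at 2201 and 2851 TPM (0.37) and *Cnn1* at 261.7 and 349.5 TPM (0.42). The 11 genes listed as CCN family members or targets of YAP had a median of 0.04. Among them *Ctgf* was at 1177 and 1343 TPM (0.19) and *Nov*, a CCN family member, at 78.1 and 55.0 TPM (−0.50). The 22 collagen chains had a median of 0.12, with 17 higher (45.4% of all kept genes were). They ranged from *Col8a2* at −0.28 to *Col6a3* at 0.31.

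Among other matrix genes, a handful passed 1.5-fold. *Has2*, which makes hyaluronan from sugar nucleotides, was at 15.4 TPM in control and 29.1 TPM in glucose depletion (0.88), below its level without glutamine, 97.5 TPM. *Timp1*, a metalloproteinase inhibitor, was at 1814 and 2919 TPM (0.69), the highest of the 7. *Adamts1*, a secreted protease, was at 81.3 and 38.3 TPM (−1.07) and the related *Adamts5* at 41.0 and 25.9 TPM (−0.64), and *Eln*, elastin, was at 55.6 and 35.6 TPM (−0.63). Both *Adamts1* and *Adamts5* were also low without glutamine (29.6 and 20.7 TPM) and in oxidative stress (25.2 and 14.7 TPM). The 14 metalloproteinases and inhibitors had a median of −0.05 and the 22 matrix glycoproteins 0.003.

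Secreted growth factors went in both directions. Of 58 listed, 46 were kept, 26 were higher (45.4% of all kept genes were) and 20 lower, with a median of 0.08. By more than 1.5-fold, 6 were higher and 4 lower (1.95% and 4.0% of all kept genes). *Csf1*, the macrophage growth factor, was at 377.0 TPM in control and 411.2 TPM in glucose depletion, a log2 change of 0.12. The other libraries had *Csf1* at 638.4 TPM without glutamine, 318.3 in osmotic stress, 398.6 in ER stress, 483.0 in oxidative stress and 197.1 in hypoxia, so glucose depletion lay inside their range. The 4 kept members of the IL-6 family were all higher, led by *Il11* at 2.86 and 8.61 TPM (1.32) and *Lif* at 9.74 and 18.5 TPM (0.86). Both were higher without glutamine, *Il11* at 46.2 TPM and *Lif* at 89.1 TPM. Against the median of the other 6 libraries *Il11* differed by 0.57 and *Lif* by 0.35.

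*Hbegf*, an EGF receptor ligand, was at 60.2 TPM in control and 97.8 TPM in glucose depletion (0.69), and *Pdgfb* at 0.82 and 2.49 TPM (0.94). *Il34*, the second ligand of the CSF1 receptor, was at 1.82 and 4.43 TPM (0.94), and *Igf1* at 9.40 and 16.5 TPM (0.75), the highest of the 7. The 4 lower factors were *Vegfb* at 42.3 and 25.9 TPM (−0.69), *Fgf18* at 5.04 and 2.73 TPM (−0.69), *Fgf10* at 8.71 and 5.13 TPM (−0.66) and *Gdf15*. *Vegfa* differed by less, at 78.6 and 103.2 TPM (0.39), while its level without glutamine was 402.3 TPM.

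Immediate early genes had a median of 0.03 over 26 kept of 27, with *Egr2* and *Egr3* past 2-fold. *Egr2* was at 4.50 TPM in control and 12.4 TPM in glucose depletion (1.29), and *Egr3* at 4.48 and 10.6 TPM (1.09). With a pseudocount of 5 TPM they were at 0.88 and 0.72, and against the median of the other 6 libraries at 0.81 and 0.71, so neither stayed past 2-fold. Against that median the whole list had a median of −0.22, with 18 of 26 lower. *Dusp6*, a phosphatase of the ERK kinases, was at 16.1 and 25.4 TPM (0.63), and *Fos* at 9.36 and 5.82 TPM (−0.60). Control was the lowest of the 7 for 5 of the 26, against 3.66% of all kept genes. In the chemokine list (16 kept of 19, median 0.07), *Ccl20* was at 1.75 and 5.95 TPM (1.34) and *Cxcl1* at 7.39 and 3.80 TPM (−0.81). The chemokine median was −0.09 over the 10 genes that reached a mean of 10 TPM.

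In the clock and interferon lists more members were lower than higher, as among all kept genes, of which 54.5% were lower. Of 18 clock genes 16 were kept, with a median of −0.18 and 11 lower. *Per1* was at 10.6 TPM in control and 5.35 TPM in glucose depletion (−0.87) and *Bhlhe41* at 7.99 and 4.16 TPM (−0.80). The 11 kept interferon genes of 20 had a median of −0.30, and 8 were lower, with *Ifit2* at 13.1 and 8.09 TPM (−0.64) and *Stat2* at 16.3 and 10.5 TPM (−0.59). The TPM of all 20 listed genes summed to 1478 in control and 1482 in glucose depletion, most of it from *B2m*, at 1273 and 1304 TPM (0.04). Against the median of the other 6 libraries the interferon median was −0.001 and the clock median −0.44. The long nuclear RNAs *Neat1* (133.1 and 66.6 TPM, −0.99) and *Meg3* (428.0 and 251.5 TPM, −0.76) were lower as well.

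Targets of the factors that answer to other stresses differed in direction. The 16 HIF targets had a median of 0.19 and 12 of 16 were higher (45.4% of all kept genes were), with *Ankrd37* at 5.02 and 8.67 TPM (0.68) and *Car9* at 6.38 and 3.53 TPM (−0.70). Hypoxia had a summed 4567 TPM for this list, against 730.1 in control and 832.8 in glucose depletion. The 13 NRF2 targets had a median of 0.01, with *Gsta4* at 28.7 and 16.5 TPM (−0.76), and *Hmox1* at 266.5 and 217.1 TPM (−0.29). The 13 heat shock genes had a median of 0.01, with *Hspa1a* at 7.52 and 3.95 TPM (−0.78). The 5 kept genes of NFAT5 and osmolyte transport, which answer to osmotic stress, had a median of −0.27 and 3 were lower, among them *Slc5a3*, the inositol transporter, at 6.87 and 4.71 TPM (−0.46). *Nfat5* itself was at 23.7 and 28.4 TPM (0.25). This median was −0.41 against the median of the other 6 libraries and −0.03 when a mean of at least 10 TPM was required. The 16 p53 targets had a median of −0.15, with 14 lower (54.5% of all kept genes were). Against the median of the other 6 libraries their median was 0.04. The 19 genes of AMPK and FoxO signalling had a median of −0.08, and none passed 1.5-fold.

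**Figure D5:**
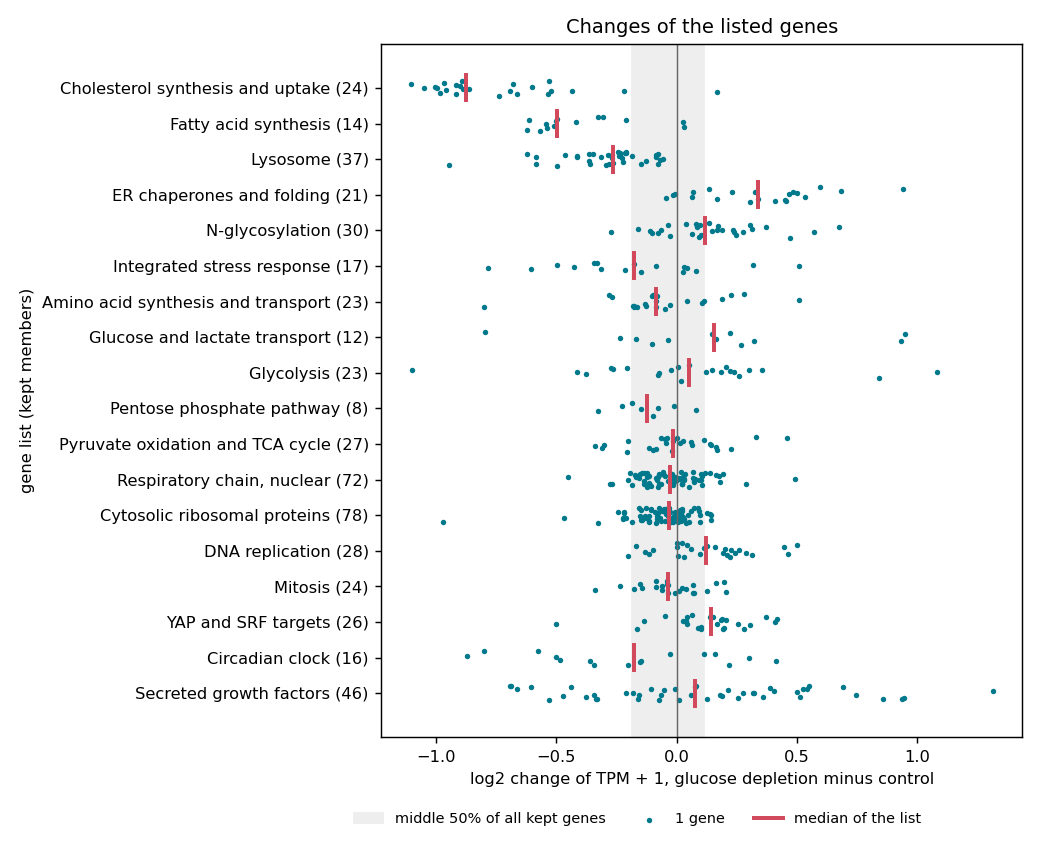
Log2 change (glucose depletion minus control) of each kept gene of 18 lists, with red lines at the list medians and a grey band over the middle 50% of all kept genes, −0.19 to 0.12. The medians of the cholesterol (−0.87), fatty acid (−0.50) and lysosome (−0.26) lists lie to the left of the band, and that of ER folding (0.34) lies farthest to its right.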

How the data were processed

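RNA-seq of 7 MEF cultures was analysed, 1 library per condition. The authors quantified reads with kallisto (0.43.1 in the submitters' processing notes) at default settings against Ensembl release 90 cDNA (mouse build GRCm38). Gene-level TPM were deposited, and these sum to 1000000 per library. Columns were assigned to conditions from the sample labels. Rows that share a symbol were summed (93 kept symbols). Leaving out symbols by name removed 22450 rows, 1280 symbols with a mean of at least 2 TPM among them, of which 12 were named genes that only start with Gm.

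The pseudocount was 1 TPM and the limits were 2-fold and 1.5-fold. Gene types came from GENCODE M21 (49 kept genes unmatched) and promoters from RefSeq. Named genes were *Txnip*, *Arrdc4* and their list, the 15 largest changes each way with at least 5 TPM in the higher library, and in each of 55 lists the extreme, key and past-1.5-fold members. Members and lists were chosen with earlier results of these data known. Scripts (Python 3.11.15, numpy 2.4.6, pandas 2.3.3, matplotlib 3.10.9) were tested on simulated data. Without replicates no test was possible. Alternatives covered the pseudocount, filters, limit, centring and reference. Single values of 4 members of the cholesterol list are not reported here, although list counts, medians and sums include them.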

Additional observations from a re-analysis of the deposited data

How the results depend on the processing

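The numbers of genes past 2-fold (65 higher, 77 lower) depended on the settings. They were 103 and 145 with a pseudocount of 0.1 TPM, 14 and 19 with 5 TPM, 15 and 23 at a mean of at least 10 TPM, and 152 and 182 with no expression filter. They were 225 and 462 at 1.5-fold, 15 and 20 at 3-fold, 236 and 309 with no symbol left out, and 10 and 15 with at least 20 TPM in the higher of the 2 libraries, a limit chosen after seeing the data. Protein-coding genes alone gave 41 and 53. Centring, leaving out the mitochondrially encoded genes, another reference, keeping rows apart and a narrower name rule kept both counts within 1.5 times. The main setting compared 11552 genes, a mean of at least 10 TPM left 8347, and the limit of 20 TPM left 6377. Why the counts differed between settings was not tested.

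Of 49 pairs of a main list (*Txnip* and *Arrdc4*, cholesterol, fatty acid, lysosome, ER folding, glycolysis, integrated stress response) and a setting, 41 kept the median within 0.1, 8 moved and none changed direction. The median of *Txnip* and *Arrdc4* (−1.78) was −1.99 with 0.1 TPM, −1.34 with 5 TPM and −1.92 against the median of the other 6 libraries. Cholesterol was −0.74 with 5 TPM and −0.64 against that median, fatty acid −0.39 and −0.36, and the integrated stress response −0.51 against it. Of 331 such pairs for the other lists, 8 with a median of at least 0.1 in size changed sign: metallothioneins (0.23) at a mean of at least 10 TPM (−0.1312), and, against the median of the other 6 libraries, metallothioneins (−0.6105), the whole MondoA list (0.0099), transport (−0.0609), pentose phosphate (0.0341), glycogen (0.025), p53 (0.0421) and cold-inducible genes (0.0114). A further 25 pairs moved by at least 0.1, and 10 of these also changed sign, among them immediate early genes (0.03 to −0.22) and mitosis (−0.03 to 0.48) against the median of the other 6 libraries, and chemokines (0.07 to −0.09) at a mean of at least 10 TPM. Another 17 changed sign while moving by less than 0.1. The cause was not tested. None of 216 pairs of a single gene and a setting changed direction, and 37 moved. Of the 10 single genes past 2-fold that were followed, 8 were no longer so with a pseudocount of 5 TPM (*Arrdc4*, *Eno2*, *Il11*, *Hsd17b7*, *Egr2*, *Egr3*, *Adamts1* and *Angptl4*) and 6 against the median of the other 6 libraries (*Eno2*, *Il11*, *Hsd17b7*, *Egr2*, *Egr3* and *Adamts1*). No paired analysis was possible because each condition had 1 library, and no library could be left out. TPM keep no depth, so what depth limits is unknown.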

Other observations

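A few protein-coding genes with at least 20 TPM in the higher library were past 2-fold without belonging to a list, and were picked after their values were seen. *Nhej1*, a factor that joins DNA ends, was at 96.5 TPM in control and 22.8 TPM in glucose depletion (log2 change −2.04). *Acat2*, which makes acetoacetyl-CoA at the head of the mevalonate pathway, was at 45.5 and 21.1 TPM (−1.08). *Angptl4*, a secreted inhibitor of lipoprotein lipase, was at 11.4 and 25.5 TPM (1.10), and *Zfp865*, a zinc finger gene, at 17.3 and 45.0 TPM (1.33). These are single values of 1 library each, with no replicate check.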
